A study of Mus musculus with 4 samples.

Results

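Germ cells make many of their messenger RNAs long before the protein is needed, because transcription stops as the sperm nucleus condenses. RNA-binding proteins bridge that gap: they store, stabilise, splice or activate transcripts, and loss of several of them blocks spermatogenesis. YTHDF2 is a cytoplasmic protein that binds N6-methyladenosine (m6A), a methyl mark on mRNA, and recruits a deadenylase that shortens poly(A) tails. The 9 genes described here encode RNA-binding proteins of the male germ line: Dazl, Boll, Ybx2, Celf1, Elavl1, Khdrbs3, Cpeb1, Rbm5 and Msi1. They were chosen by symbol from a deposited table of 25265 genes, and each symbol matched 1 row.

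The RNA came from testis of C57BL/6 mice aged 56 postnatal days, and libraries were made from total RNA with a strand-specific kit after removal of ribosomal RNA. There were 2 libraries labelled control and 2 labelled Ythdf2-vKO, which the series title describes as germ cell-specific mutants of Ythdf2. The driver of the deletion, the allele and the genotype of the controls are not given in the sources used here. Nothing in the labels says that the libraries came from separate animals, so p-values measure only the spread between these libraries. Total gene counts ran from 24862518 to 29561182 per library. Ythdf2 itself was not reduced: the control libraries had 51.0 and 53.5 CPM, and those labelled Ythdf2-vKO had 66.3 and 67.0 CPM (edgeR log2 fold change 0.35, SE 0.13, adjusted p 0.238). The segment deleted is not stated, and counts over a whole gene do not show which exons were read. Directions below are therefore those of the libraries labelled Ythdf2-vKO relative to those labelled control. CPM are counts scaled to the size of each library after TMM normalization, which assumes that most genes do not differ.

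The m6A mark that YTHDF2 reads is most often placed on the A of a GGACT context (GGACU in RNA). The GGACT nearest the stop codon of each gene's longest protein-coding transcript is shown here as an example of that context. Where a transcript holds further matches, they are not shown. Neither methylation nor binding by YTHDF2 was measured at any of these matches. Each 25-base stretch is from GENCODE M21 on the transcript strand, with the motif in capitals.
Dazl: tttaccgtaaGGACTtttagttgaa
Boll: aacaaatcctGGACTgttaataaaa
Ybx2: agcgggcagaGGACTcggggcagcg
Celf1: ttggagaccaGGACTtactgcagat
Elavl1: gacggtggtgGGACTgaagcatgct
Khdrbs3: caagaggaatGGACTaactcaagac
Cpeb1: tgtgtctgggGGACTgctggtcaca
Rbm5: cccacctgagGGACTgtgaacagag
Msi1: cagccaaccaGGACTccggggtcag
In GRCm38 these motifs lie in the 3′ UTR of Dazl (chr17:50280970-50280974, minus strand), Boll (chr1:55269088-55269092, minus), Elavl1 (chr8:4289265-4289269, minus), Cpeb1 (chr7:81347652-81347656, minus) and Rbm5 (chr9:107740781-107740785, minus). They lie in the coding sequence of Ybx2 (chr11:69940056-69940060, plus strand), Celf1 (chr2:91012754-91012758, plus), Khdrbs3 (chr15:69092913-69092917, plus) and Msi1 (chr5:115450902-115450906, plus). The distance to the end of the coding sequence ran from 79 bases in Khdrbs3 to 1550 bases in Boll.

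All 9 transcripts held at least 1 GGACT on the sense strand, as did 90.7% of the longest protein-coding transcripts of 17280 genes in the table, so its presence does not set the 9 apart. Density ran from 0.38 per kilobase in Boll, with 1 motif in 2635 bases, to 1.93 per kilobase in Cpeb1, with 6 motifs in 3111 bases. The median over the 17280 genes was 1.04 per kilobase. Dazl (0.67), Celf1 (0.64), Elavl1 (0.70) and Rbm5 (0.94) lay below that median, and Ybx2 (1.20), Msi1 (1.28) and Khdrbs3 (1.59) above it. A match is a description of letters; methylation was not measured.

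YBX2 belongs to a family named for the Y-box, a promoter element with the letters CTGATTGG. RefSeq promoter windows, which run from 250 bases before to 50 after a start site in GRCm38.p6, were matched by symbol for 7 of the 9 genes, in 9 windows, and not for Khdrbs3 and Msi1. The Y-box, searched on both strands, was in 2 of the 9 windows and in 4.1% of all 32851 windows. It stood 45 bases before a start of Boll and 52 bases before the start of Rbm5. These 40-base stretches show it in capitals, as the reverse complement in Boll and in the forward direction in Rbm5.
Boll, second window: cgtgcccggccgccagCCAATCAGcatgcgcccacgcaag
Rbm5: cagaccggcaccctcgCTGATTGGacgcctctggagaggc
The Boll stretch is chr1:55362758-55362797 and the Rbm5 stretch chr9:107771039-107771078, both read from the minus strand. The shorter ATTGG, which the Y-box contains, was in 5 of the 9 windows (1 each of Boll, Elavl1, Rbm5, Ybx2 and Dazl) against 37.4% of all windows. CpG dinucleotides numbered 13 to 40 per window, against a median of 7 over all windows.

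All 9 genes were expressed in every library, with between 191 and 46708 counts per gene and library, and all passed the filter on low counts. Levels are compared between genes as CPM per kilobase of the union of annotated exons, given as the mean ± SD over 4 libraries. Ybx2 stood far above the rest at 850.1 ± 136 CPM per kilobase. Dazl (38.1 ± 3.93), Boll (32.4 ± 2.99) and Khdrbs3 (28.0 ± 1.75) followed, and the range of each over the libraries overlapped that of its neighbour in this order. Within every library Boll was above Khdrbs3, though barely in Ythdf2-vKO replicate 1 (30.7 against 30.6). Msi1 (10.8 ± 2.66), Rbm5 (9.09 ± 0.336) and Elavl1 (8.80 ± 0.459) formed a lower group that also overlapped from neighbour to neighbour. Celf1 (5.80 ± 0.342) and Cpeb1 (2.19 ± 0.198) were lowest, and neither overlapped the gene above it. Ybx2 was 22.3 times Dazl, while the other steps between neighbours were at most 2.65-fold. With the longest transcript as the length, Rbm5 (22.2) moved above Msi1 (20.1) and Elavl1 stood at 15.9 CPM per kilobase, while the other 7 genes kept their place. Rbm5 has 15434 bases in its union of exons and 6321 in its longest transcript, so its level per length depends most on that choice. Its longest protein-coding transcript has 3205 bases, and that of Khdrbs3 has 1887, against 2861 in the longest Khdrbs3 transcript of any type. The order with protein-coding lengths was not worked out, so the order given holds only for the lengths used here.

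**Figure D1:**
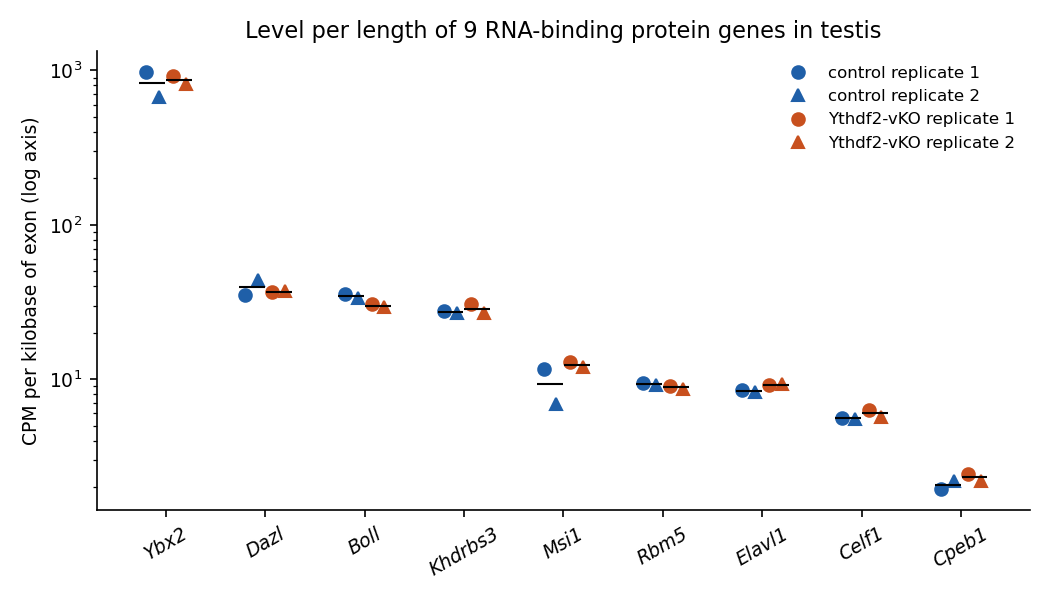
Level of each gene in CPM per kilobase of exon on a log axis, in order of the mean; blue points are control libraries, orange points libraries labelled Ythdf2-vKO, circles replicate 1, triangles replicate 2, and black lines group means. Ybx2 lies 22.3-fold above Dazl, and control replicate 2 is the lowest library for Ybx2 and Msi1 and the highest for Dazl.

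None of the 9 genes passed the test between the groups. In edgeR's quasi-likelihood fit, 0 of 9 had a Benjamini-Hochberg adjusted p under 0.05, where 0.393% of the 21132 genes tested were called (0.279% higher, 0.114% lower). At an unadjusted p under 0.05 there were also 0 of 9, against 14.1% of all genes. The authors' deposited table matched a DESeq2 Wald test of the deposited counts to within 3.7e-08 in log2 fold change, so these are the same test. In that deposited table no member had an adjusted p under 0.05, against 1.32% of the 16448 genes given one, and only Msi1 had an unadjusted p under it (0.0446). The log2 fold change was positive in 6 genes and negative in 3, where 50.3% of all genes tested were positive, with a median of 0.08 against 0.00 over all genes tested. Its absolute value had a median of 0.11 in the 9 genes and 0.21 over all genes. These medians were not matched for count or precision, and the 9 genes had the smaller standard errors given below. Groups did not overlap in 5 of the 9 (Msi1, Elavl1 and Celf1 higher, Boll and Rbm5 lower), where 45.3% of all genes tested were so separated (22.7% higher, 22.6% lower).

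The precision allowed limits to be set on the differences between these libraries in the main fit, not on an effect of genotype in other animals. For 8 of the 9 genes the 95% interval of the fold lay within 1.5-fold in either direction, and for all 9 within 2-fold. The median standard error of the log2 fold change was 0.13 in these genes and 0.20 over all genes tested. In simulated counts of 21132 genes with this design, 34.3% of genes changed 1.5-fold were called, 74.6% of those changed 2-fold and 98.5% of those changed 4-fold. No fold below 1.5 was simulated, and 13 unchanged genes were also called. The simulated counts carried no GC-linked difference between libraries, and the changed genes were not matched to the 9 for precision. These shares need not hold for the 9 genes.

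**Figure D2:**
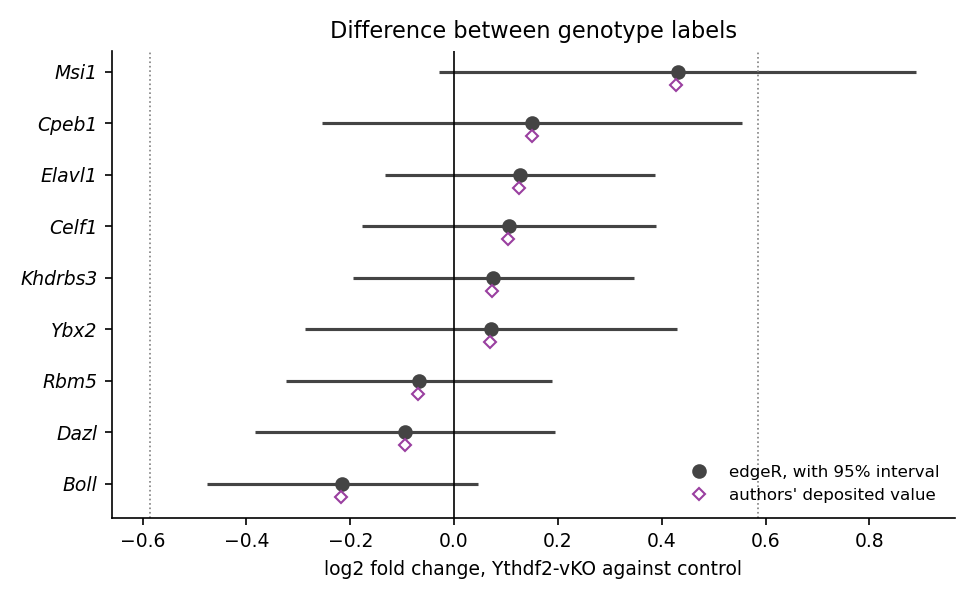
Log2 fold change of each gene between the libraries labelled Ythdf2-vKO and control, with its 95% interval from edgeR (grey) and the authors' deposited value (purple diamonds); dotted lines mark 1.5-fold either way. Every interval includes 0, and that of Msi1 alone passes a dotted line.

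DAZL and BOLL are RNA-binding proteins of the DAZ family that share an RNA recognition motif. DAZL binds 3′ UTRs and promotes translation from spermatogonia into meiosis, and BOLL acts later and is needed for spermatids to form normally. Dazl (ENSMUSG00000010592, chr17:50279395-50293636, minus strand) was counted 3113 and 5019 times in the control libraries, against 3743 and 3827 times in those labelled Ythdf2-vKO, or 133.2 and 167.4 against 139.8 and 141.9 CPM. The control libraries enclosed both of the others. The log2 fold change was -0.09 (SE 0.13, edgeR adjusted p 0.815), an interval of 0.766-fold to 1.14-fold. Without control replicate 2 it was 0.08 instead.

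Boll (ENSMUSG00000025977, chr1:55248658-55363469, minus strand) was counted 2947 and 3548 times in the control libraries, against 2892 and 2766 times in those labelled Ythdf2-vKO. In CPM these were 126.1 and 118.3 against 108.0 and 102.5, so both control libraries were the higher. The log2 fold change of -0.21 (SE 0.12, edgeR adjusted p 0.460) was the most negative of the 9, with an interval of 0.719-fold to 1.03-fold, and it ran from -0.26 to -0.11 over the 13 alternatives. With the offset for GC content it was -0.11, and the Boll transcript has 34.6% GC. Of the spermatocyte markers, 9 of 10 also had a negative log2 fold change (median -0.20, 0 called). They summed to 1956 and 2018 CPM in control against 1842 and 1753 CPM, and none was at 0 in any library. Round spermatid markers were negative in 4 of 7 and positive in 3 (median -0.02, 0 called). Their sums were 1563 and 1557 CPM in control against 1449 and 1560 CPM. The part of either list in the Boll value was not tested. In whole testis, fewer cells of a type and less RNA per cell cannot be told apart. The ratio of Dazl to Boll counts within a library, which no scaling touches, was 1.06 and 1.41 in control libraries against 1.29 and 1.38, and these ranges overlapped.

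YBX2, also called MSY2, is a cold-shock domain protein that packages and stabilises stored mRNA in spermatocytes and spermatids. Its transcript was counted 43319 and 38149 times in the control libraries, against 46708 and 41517 times in those labelled Ythdf2-vKO (ENSMUSG00000018554, chr11:69935796-69941605, plus strand). Control levels were 1853 and 1272 CPM, against 1745 and 1539 CPM. Both of the latter lay between the control libraries. Ybx2 had a log2 fold change of 0.07 (SE 0.16, edgeR adjusted p 0.899), with an interval of 0.819-fold to 1.35-fold. Its direction rested on the control libraries: without control replicate 1 it was 0.36 with an edgeR adjusted p of 0.0146, and without control replicate 2 it was -0.17 with an adjusted p of 0.377. Over all genes, the fit without control replicate 1 called 6.82% of 22184 (4.72% higher, 2.09% lower), and the fit without control replicate 2 called 4.93% of 21862 (2.53% higher, 2.39% lower). It was also below 0 without Ythdf2-vKO replicate 1 (-0.02) and with the GC offset (-0.16). Among the Y-box genes, Ybx2 took 45.9% to 48.5% of the family's level per length over the 4 libraries, ahead of Ybx1 and Ybx3, which are also expressed outside the germ line. With the longest transcript as the length, the Ybx2 share was 37.4% to 39.7%, and Ybx2 still ranked first.

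CPEB1 binds the cytoplasmic polyadenylation element in 3′ UTRs and controls poly(A) tail length and translation, in meiosis among other settings. Cpeb1 (ENSMUSG00000025586, chr7:81347026-81455465, minus strand) was the lowest of the 9, counted 191 and 277 times in the control libraries, against 273 and 247 times in those labelled Ythdf2-vKO. In CPM these were 8.17 and 9.24 against 10.2 and 9.16, and the groups overlapped. Cpeb1 had a log2 fold change of 0.15 (SE 0.19, edgeR adjusted p 0.784), with an interval of 0.839-fold to 1.47-fold. Cpeb1 held 2.18% to 3.46% of the CPEB family's level per length, and Cpeb2 66.2% to 69.4%, so that Cpeb1 ranked last of the 4 genes.

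Musashi 1 is a translational repressor known from neural stem cells, and in testis it is known from Sertoli cells and early germ cells. Msi1 (ENSMUSG00000054256, chr5:115429599-115455698, plus strand) was counted 1568 and 1205 times in the control libraries, against 1994 and 1884 times in those labelled Ythdf2-vKO. The levels were 67.1 and 40.2 CPM in control against 74.5 and 69.8 CPM. Both libraries labelled Ythdf2-vKO were above both controls, but control replicate 1 lay close to them and control replicate 2 far below. The log2 fold change of 0.43 (SE 0.21) was the largest of the 9, and it did not pass (edgeR adjusted p 0.390). Its interval ran from 0.980-fold to 1.85-fold.

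The size of the Msi1 difference depended on which control library was kept, and the data do not say which control is the more typical. Without control replicate 1 the log2 fold change was 0.84 with an edgeR adjusted p of 5.6e-06, and without control replicate 2 it was 0.11 with an adjusted p of 0.771. Without control replicate 1, Msi1 and Ybx2 made 2 of 9 called, beside the 6.82% of all genes in that fit. In these fits the lone control library is assumed to vary like the other group. The GC offset gave 0.28. Sertoli cell markers were positive in 11 of 11 genes beside Msi1 (median log2 fold change 0.44), of which 1 was called, Wt1, a transcription factor of Sertoli cells (0.71, edgeR adjusted p 0.0418). They summed to 896.0 and 963.8 CPM in control against 1265 and 1110 CPM. Spermatogonia markers were positive in 10 of 10 (median 0.27, 0 called, 3 at an unadjusted p under 0.05), with a summed 158.5 and 153.8 CPM against 193.0 and 171.4 CPM. Other somatic lists had the same direction, with 7 of 8 Leydig cell markers positive (median 0.38), 4 of 5 tested endothelial markers (0.43) and 3 of 3 tested erythrocyte markers (0.80), and 0 called in each. Leydig cell markers summed to 301.0 and 365.1 CPM in control against 478.3 and 357.1 CPM, endothelial markers to 33.4 and 22.8 against 42.1 and 35.9 CPM, and erythrocyte markers to 9.41 and 9.61 against 19.9 and 12.8 CPM. Macrophage markers were positive in 6 of 7 (median 0.07) and peritubular myoid markers in 2 of 5 (-0.05). None of these markers was at 0 in a library, and the part of these lists in the Msi1 value was not tested. In control replicate 2, where Msi1 was lowest, the Sertoli sum was the higher of the control pair and the spermatogonia sum the lower. Clu made up most of the Sertoli sum, at 658.3 and 715.0 CPM in the control libraries. Genes within each list went both ways: Amh and Gata4 were lower in control replicate 2, and Gfra1, Stra8 and Dmrt1 higher. A link between either sum and the Msi1 gap was not tested. Of the Musashi level per length, Msi1 held 68.0% and 59.8% in control against 71.9% and 68.9%, with Msi2 making up the rest. In counts, Msi1 was 1.19 and 0.828 times Msi2 in control against 1.43 and 1.23 times. Msi2 itself had a log2 fold change of 0.05 (edgeR adjusted p 0.918).

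ELAVL1 (HuR) binds AU-rich elements and stabilises mRNA, and CELF1 binds GU-rich elements and promotes deadenylation as well as acting in splicing. Elavl1 (ENSMUSG00000040028, chr8:4285382-4325413, minus strand) was counted 2064 and 2581 times in the control libraries, against 2531 and 2587 times in those labelled Ythdf2-vKO. At 88.3 and 86.1 CPM against 94.5 and 95.9 CPM, each group was tight and the groups did not overlap. This made a log2 fold change of 0.13 (SE 0.12, edgeR adjusted p 0.702), with an interval of 0.911-fold to 1.31-fold. Exons of Ccl25 overlap those of Elavl1 on the opposite strand. Ccl25 had between 252 and 293 counts, and whether the counting used the strand is not stated. Elavl1 held 80.5% to 84.4% of the ELAVL family's level per length, ahead of the relatives Elavl2, Elavl3 and Elavl4, which are known from neurons.

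Celf1 (ENSMUSG00000005506, chr2:90940382-91019497, plus strand) was counted 1109 and 1407 times in the control libraries, against 1425 and 1304 times in those labelled Ythdf2-vKO. These were 47.4 and 46.9 CPM against 53.2 and 48.3 CPM, higher in both libraries labelled Ythdf2-vKO by a small margin. This made a log2 fold change of 0.11 (SE 0.13, edgeR adjusted p 0.782), with an interval of 0.885-fold to 1.31-fold. By mean level, Celf1 had rank 3 of 6 in its family, with 15.6% to 19.5% of the level per length. Celf3 (40.4% to 42.6%) and Celf5 ranked above it, but in control replicate 2 Celf1 (19.5%) exceeded Celf5 (17.0%). With the longest transcript as the length, Celf6 exceeded Celf1 in control replicate 1 (11.9% against 11.5%) and Ythdf2-vKO replicate 2 (11.7% against 11.2%).

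KHDRBS3, also called T-STAR or SLM2, and RBM5 regulate splicing. A missense change of RBM5 is known to arrest mouse spermatids. Khdrbs3 (ENSMUSG00000022332, chr15:68928420-69101211, plus strand) was counted 2350 and 2965 times in the control libraries, against 2996 and 2650 times in those labelled Ythdf2-vKO. The levels were 100.5 and 98.9 CPM against 111.9 and 98.2 CPM, and the groups overlapped. Khdrbs3 had a log2 fold change of 0.08 (SE 0.12, edgeR adjusted p 0.846), with an interval of 0.874-fold to 1.27-fold, and -0.02 without Ythdf2-vKO replicate 1. Khdrbs3 held 66.0% to 67.5% of its family's level per length, and Khdrbs1 nearly all of the rest, since Khdrbs2 had 3 to 5 counts per library.

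Rbm5 (ENSMUSG00000032580, chr9:107740371-107770996, minus strand) was counted 3423 and 4214 times in the control libraries, against 3752 and 3608 times in those labelled Ythdf2-vKO. At 146.4 and 140.6 CPM against 140.2 and 133.7 CPM, the groups were separated by a gap smaller than that between the replicates of either. The log2 fold change of -0.07 (SE 0.12, edgeR adjusted p 0.858) had an interval of 0.799-fold to 1.14-fold, and with the GC offset it was 0.00. Rbm5 held 43.2% to 46.2% of the level per length among Rbm5, Rbm6 and Rbm10. With the longest transcript as the length, Rbm6 (46.3%) exceeded Rbm5 (44.9%) in control replicate 2.

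**Figure D3:**
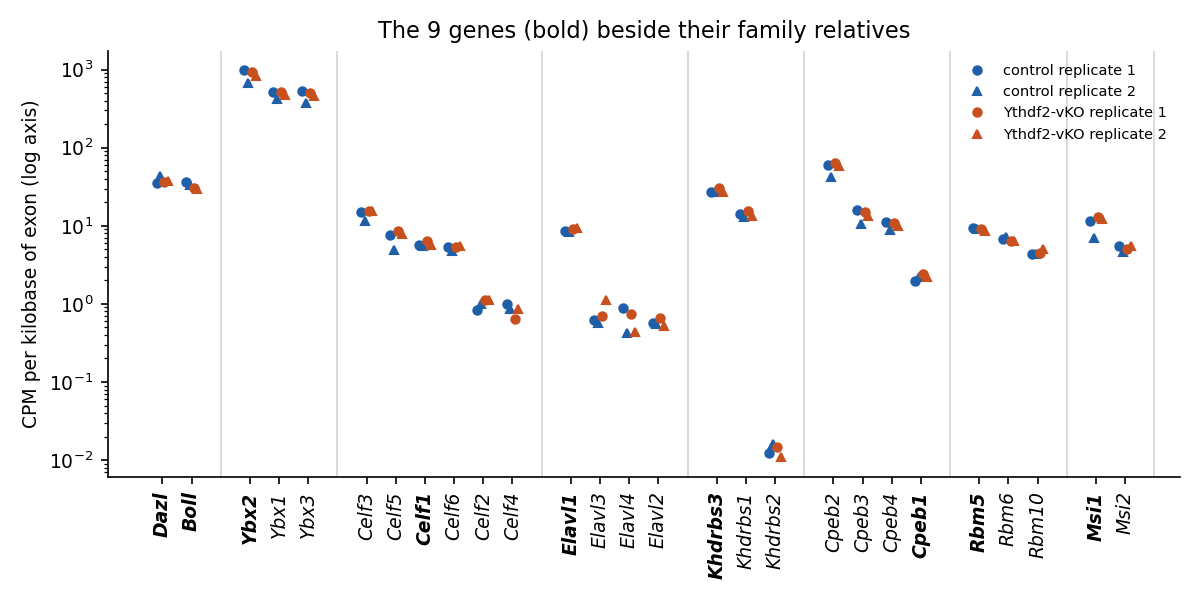
Level in CPM per kilobase of exon, on a log axis, of the 9 genes (bold) and their family relatives in each library, with colours and shapes for group and replicate. By mean level, Ybx2, Elavl1, Khdrbs3, Rbm5 and Msi1 rank first in their families, Celf1 at rank 3 of 6 and Cpeb1 last of 4. In control replicate 2, Celf1 is above Celf5.

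The control libraries differed from each other by more than the groups did in 4 of the 9 genes (Dazl, Ybx2, Cpeb1 and Msi1), and in 54.9% of the genes tested that had counts in every library. From control replicate 1 to control replicate 2, Msi1 fell by 0.74 and Ybx2 by 0.54 on the log2 scale, while Dazl was 0.33 and Cpeb1 0.18 higher. The other 5 genes moved by -0.09 (Boll) to -0.02 (Celf1). Ybx2 (63.4%) and Msi1 (57.9%) have the highest transcript GC content of the 9, against a median of 48.9% over all genes tested, and Dazl (37.0%) and Boll (34.6%) the lowest. Boll did not move with Dazl, and over the 9 genes the control gap had a Pearson correlation of -0.77 and a Spearman correlation of -0.35 with GC content, as a description over genes of the same libraries. Over 17900 genes the deviation of control replicate 2 from the mean of the libraries had a Spearman correlation of -0.40 with GC content, against 0.02 for control replicate 1 and 0.25 and 0.19 for the libraries labelled Ythdf2-vKO. These are correlations across genes, which are not independent replicates. Each deviation is taken from the mean of the same libraries, so a negative trend in control replicate 2 in part gives the others a positive one. Between replicates labelled Ythdf2-vKO, the 9 genes differed by at most 0.19 on the log2 scale in either direction.

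**Figure D4:**
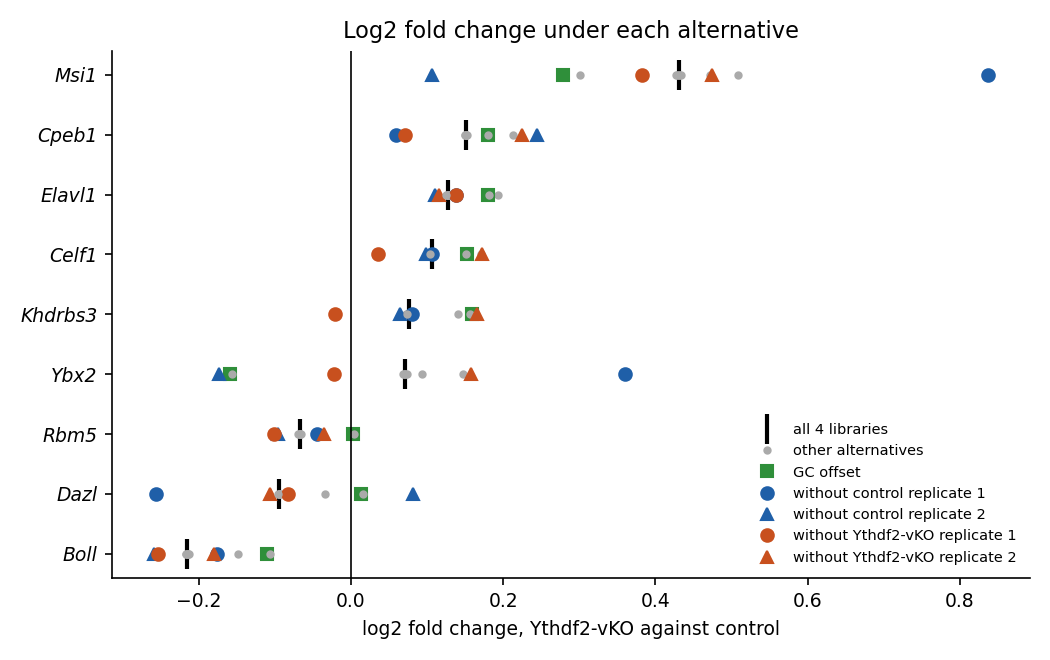
Log2 fold change of each gene with all 4 libraries (black bars), without each library in turn (blue and orange), with the GC offset (green squares) and under the other alternatives (grey). Leaving out a control library moves Msi1 between 0.11 and 0.84 and Ybx2 between -0.17 and 0.36. Elavl1 stays between 0.11 and 0.19 over all 13 alternatives.

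The relatives of these genes gave a similar picture. Of 18 family relatives, 17 were tested and 0 were called by edgeR, with 1 at an unadjusted p under 0.05. Their log2 fold changes were positive in 14 and negative in 3, with a median of 0.10. The smallest p belonged to Elavl3 (log2 fold change 0.61, SE 0.26, edgeR adjusted p 0.314), which was counted 100 and 116 times in the control libraries, against 128 and 206 times in those labelled Ythdf2-vKO. Celf5 (0.41, SE 0.19) and Celf2 (0.30, SE 0.15) came next, at edgeR adjusted p values of 0.361 and 0.392. Without control replicate 1, Celf5, Cpeb2, Ybx3, Celf3 and Cpeb3 were called, each higher, and with the replicate number as a block Celf5 was (edgeR adjusted p 0.0405). The first of these fits called 6.82% of all genes tested, and the fit with the block called 4.81% (2.97% higher, 1.85% lower).

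Transcripts that members are known to bind or control were also read, among them Sycp1 and Sycp3 for CPEB1, Ddx4 for DAZL and Prm1 and Prm2 for YBX2. Of 13 such genes, all tested, edgeR called 0, and 3 had an unadjusted p under 0.05. The median log2 fold change was -0.13, with 5 positive and 8 negative. All 3 give proteins that are made in spermatids. The glycolytic enzyme gene Pgk2 was counted 18961 and 22895 times in the control libraries, against 16248 and 18010 times in those labelled Ythdf2-vKO (log2 fold change -0.31, SE 0.12, edgeR adjusted p 0.262). The protamine genes, whose products replace histones on sperm DNA, had log2 fold changes of -0.31 for Prm1 and -0.29 for Prm2 (edgeR adjusted p 0.287 and 0.318). Without control replicate 2 all 3 were called, at edgeR adjusted p values of 0.031 for Pgk2, 0.0055 for Prm1 and 0.00289 for Prm2. Without control replicate 1 they were not, and Hspa2 (0.59) and Gapdhs (0.35) were called higher instead. These fits called 4.93% and 6.82% of all genes.

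Elongating spermatid markers, which share 4 genes with that list, were read beside these targets. Of the 9 markers 8 were negative (median log2 fold change -0.25, 0 called, 4 at an unadjusted p under 0.05), and none was at 0 in a library. They summed to 12366 and 10160 CPM in control against 9632 and 9905 CPM. Their part in the values of the targets was not tested.

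Of 30 other regulators of translation in germ cells, 28 were tested and edgeR called 0, with 2 at an unadjusted p under 0.05. Their median log2 fold change was -0.01, with 13 positive and 15 negative. The RNA helicase gene Ddx25, needed for spermatid development, was at 554.5 ± 25.6 CPM in control and 442.5 ± 27.4 CPM under the Ythdf2-vKO label (SD, n = 2), which made a log2 fold change of -0.33 (SE 0.12, edgeR adjusted p 0.240). Lin28a, expressed in undifferentiated spermatogonia, was at 3.99 ± 0.168 against 5.70 ± 0.768 CPM, with a log2 fold change of 0.51 (SE 0.23, edgeR adjusted p 0.339). The germ granule gene Tdrd7 had a log2 fold change of -0.23 (edgeR adjusted p 0.409). Without control replicate 1, Ddx25 was among the genes called, with a lower level, in the fit that called 6.82% of all genes. The DESeq2 Wald test called none of the relatives, known targets or other regulators, and it is the test of the deposited table.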

How the data were processed

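The authors deposited raw read counts per gene, per the file headers, for 2 control and 2 Ythdf2-vKO testis libraries. HISAT2 2.1.0 and HTSeq 0.6.1p1 are named in the submitters' processing notes, and the genome build and strand setting are not given in the sources used here. The authors also deposited a mean normalized count (a signal), a log2 fold change, its standard error and test statistic (each read as a score), a p-value and an adjusted p-value, under the column names of DESeq2 per the file headers. Recomputing that mean from the counts gave a largest relative difference of 4.9e-10. The lowest sum of counts in any row was 10.

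Counts were tested with edgeR 4.0.16 (limma 3.58.1, R 4.3.3): TMM scaling, the filterByExpr filter, a robust quasi-likelihood model with genotype as its term over all 4 libraries, a two-sided F test and Benjamini-Hochberg adjustment over 21132 genes, called under 0.05. The standard error is the absolute log2 fold change over the square root of F, and 95% intervals use its t quantile. The fit was tested on simulated data. Replicates of a group differed by more than sampling noise (chi-square per degree of freedom 21.2 and 8.41). No other transcript matched a member's longest transcript at 85% identity over 200 bases (blastn 2.17.0). Genes, coordinates, lengths and GC content come from GENCODE M21 (GRCm38) by identifier, 25261 of 25265 matched. Named are the 9 members, Ythdf2, called list genes, family relatives and up to 3 genes per list of smallest p; genes named for another reason were chosen after their values were seen. Members and lists were chosen with earlier results of these data known. Alternatives covered scaling, filters, robust estimation, DESeq2 1.42.0, GC, the replicate number and each library left out. Counts carry no molecular identifiers.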

Additional observations from a re-analysis of the deposited data

How the results depend on the processing

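No member was called under any alternative except without control replicate 1, which called Msi1 and Ybx2, so members called ran from 0 to 2 over the fits without 1 library. That fit called 1048 genes higher and 464 lower, or 6.82% of the genes it tested. In those fits family relatives called ran from 0 to 5, known RNA targets from 0 to 3 and other regulators from 0 to 3. With the replicate block, which called 4.81% of all genes, 1 relative was called. Numbers over all genes moved more. Library totals alone gave 181 higher and 37 lower (83 with TMM, 59 and 24) and shifted the all-gene median (log2) from 0.00 to 0.07. The DESeq2 Wald test, the same as that of the authors' deposited table, gave 137 and 80, the replicate block 627 and 390, the GC offset 89 and 67, and the GC offset with the replicate block 322 and 342. Without robust estimation 15 were lower. Fits without 1 library gave 30 to 1048 higher and 5 to 523 lower. The cause was not tested.

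Both groups use replicate numbers 1 and 2, but deviations of same-numbered libraries correlated at only 0.08 across genes, over 2 pairs, so no pairing was assumed. With the block the log2 fold change of Msi1 was 0.47 (edgeR adjusted p 0.0522).

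Signs turned for Dazl with the GC offset (0.0126), the GC offset with replicate block (0.0156) and without control replicate 2 (0.0817; -0.256 to 0.0817 over the fits without 1 library), and for Rbm5 with the GC offset (0.0026) and the GC offset with replicate block (0.0035). Ybx2 turned with the GC offset (-0.16), the GC offset with replicate block (-0.16), without control replicate 2 (-0.174) and without Ythdf2-vKO replicate 1 (-0.0223; -0.174 to 0.360 over the fits without 1 library), as did Khdrbs3 without Ythdf2-vKO replicate 1 (-0.0216; -0.0216 to 0.165). None of the reversed values passed the test. Boll, Celf1, Elavl1, Cpeb1 and Msi1 kept their sign under all 13 alternatives. With 2 libraries a group, the 95% intervals of all 9 log2 fold changes included 0, and 8 of them lay within 1.5-fold in either direction. Differences inside a gene's own interval could not be told from none.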
